A study of Mus musculus with 2 samples.

Results

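Junction and adhesion proteins hold the epithelial sheet of the colon together, and 40 of their genes, claudins left out, were followed in the colon of mice fed psyllium, a viscous seed-husk fibre. The genes were taken by name, as probe sets annotated to exactly 1 of them, and no threshold on a measured value entered the choice, although earlier results of these data were known when the names were listed. A probe set naming that gene alone was found for all 40, out of 22180 genes measured in this way. Pals1 was found under its older symbol Mpp5. For this report they are placed in 7 role groups: tight junction transmembrane proteins, tight junction scaffolds, adherens junction proteins, intestinal and brush border cadherins, desmosome proteins and plakins, polarity complexes, and pan-epithelial adhesion proteins with their regulators.

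The series holds 2 whole-transcript arrays of total RNA from the colons of healthy male ICR mice, an outbred stock, aged 7 weeks. One array carried RNA of mice on a control diet without psyllium and the other RNA of mice on a diet with 10% psyllium, both fed for 5 days. The labels give neither the number of mice behind an array nor the segment or wall layers taken. With 1 array per diet the differences have no replicate check, so no error, p-value or test of the diet is given, and each value compares these arrays only.

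Tight junctions close the space between neighbouring epithelial cells near the lumen: transmembrane proteins meet across the gap and scaffolds tie them to actin. Adherens junctions below them join cells through E-cadherin and catenins, and desmosomes anchor the keratin filaments. The Par, Crumbs and Scribble complexes set the border between the apical and the lateral membrane, and at the apical face protocadherins link the tips of microvilli into the brush border.

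Nearly all of these genes were slightly lower on the psyllium array, and none differed by 1.5-fold. Differences are log2 psyllium minus log2 control. The difference was below 0 for 37 of 40 genes (92.5%), beside 56.6% of the 11090 genes past an intensity filter of 69.5, the median over genes of the brighter value. With the trend of the difference on intensity removed it was below 0 for 32 of 40, beside 49.8% of all genes. The median difference was -0.21, a ratio of 1.16-fold, against -0.04 over all genes past the filter. The middle 50% of the junction and adhesion genes lay between -0.34 and -0.11, and that of all genes past the filter between -0.18 and 0.13.

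At 1.2-fold, 14 of 40 genes (35%) were lower, beside 15.5% of all genes past the filter, and 2 (5%) were higher, beside 13.6%. At 1.5-fold 0 were lower, beside 2.42% of all genes, and 0 were higher, beside 4.03%. These shares, with the 56.6% below 0, are also the background for the counts of role groups and gene lists below. Just inside the 1.2-fold line lay Esrp2 at -0.27 and just outside it Esrp1 at -0.25, so these 2 splicing regulators were separated by the line and not by their values. The nearest to 1.5-fold were Pard6b, at 1.49-fold lower, and Cdhr2, at 1.48-fold lower. All 40 genes passed the filter. For 39 both values were at or above it, and Jam3 passed on the psyllium array alone.

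A yardstick for single differences came from 332 genes with a pair of probe sets past the filter, whose differences were a median of 0.17 apart on the log2 scale. That gap is between probe sets on the same RNA and holds no variation between animals. As it is a median, many pairs differ by more, so a difference beyond it is not thereby resolved. Differences beyond it were found for 23 of 40 genes (57.5%) on the lower side, beside 27.3% of all genes past the filter. On the higher side there were 2, beside 20.6%. The other 15 genes lay within it. When the 40 genes are sorted by difference, neighbours are closer than this gap except at the steps from Ctnna1 to Ppl and from Ppl to Jam3, so the order below 0 is not resolved gene by gene.

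**Figure D1:**
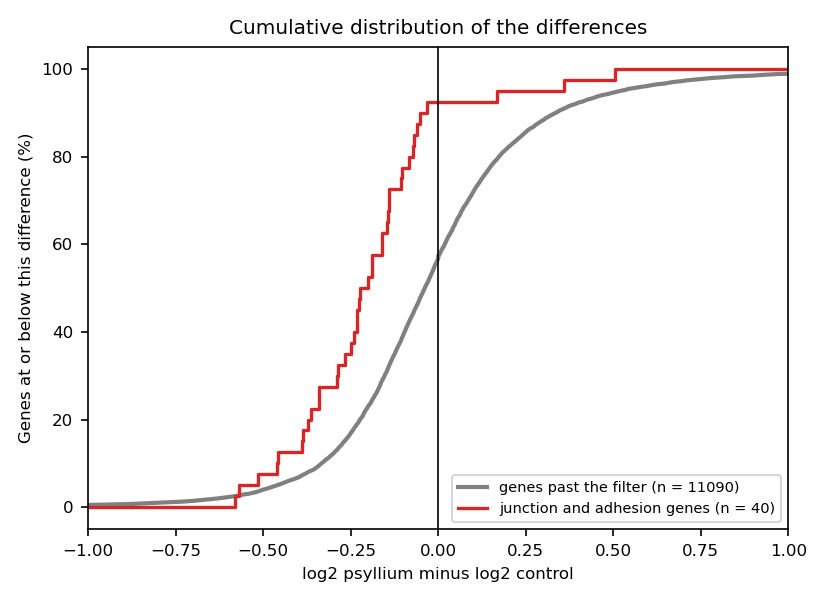
Cumulative percentage of genes at or below each difference (x axis, log2 psyllium minus log2 control) for the 40 junction and adhesion genes (red) and the 11090 genes past the intensity filter (grey). The red curve reaches 92.5% at a difference of 0, where the grey one stands at 56.6%, and does not extend below -0.58.

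The promoters of these genes are shown because most members differed in the same direction. RefSeq's promoter windows, 250 bases before to 50 after a start site in GRCm38.p6, matched 23 of the 40 genes with 34 windows, some of them overlapping. They were searched on both strands for 4 motifs: CACCTG (the E2-box read by Snail and ZEB repressors and other E-box factors), GGGCGG (the GC box of Sp1 family factors), AACCNGTT (grainyhead-like factors) and TTTATNG (caudal homeobox factors). CACCTG was in 18 of 34 windows (52.9%) and in 20.2% of all 32851 windows of this length. GGGCGG was in 22 of 34 (64.7%) and in 35.7% of all windows. AACCNGTT was in 1 and TTTATNG in 3 of the 34, beside 2.09% and 10.9% of all. The member windows were also richer in G and C, with a median of 61.2% against 52.7%, and the part of base composition in these shares was not tested. By gene, 13 of 23 (56.5%) held CACCTG in any window, beside 22.6% of all 27025 genes with a window, past the intensity filter or not. The number of windows per gene, 34 for 23 members and 32851 for all 27025 genes, was not adjusted for. The median difference of genes with and without a motif was -0.29 (13 genes) and -0.15 (10 genes) for CACCTG, and -0.22 and -0.22 for GGGCGG. For TTTATNG it was -0.10 (3 genes) and -0.24, and for AACCNGTT -0.15 (1 gene) and -0.23. These splits are small, leave out the members without a window and were not tested.

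The windows of Pard6b, Cdhr2 and Vil1, which had the most negative differences among members with a single window, and that of Tjp1, a tight junction scaffold without the motif, read as follows on the gene's strand, 5′ to 3′, with CACCTG or its reverse complement CAGGTG in capitals. They lie at chr2:168080754-168081053 (+), chr13:54701213-54701512 (+), chr1:74409134-74409433 (+) and chr7:65371195-65371494 (-).
Pard6b: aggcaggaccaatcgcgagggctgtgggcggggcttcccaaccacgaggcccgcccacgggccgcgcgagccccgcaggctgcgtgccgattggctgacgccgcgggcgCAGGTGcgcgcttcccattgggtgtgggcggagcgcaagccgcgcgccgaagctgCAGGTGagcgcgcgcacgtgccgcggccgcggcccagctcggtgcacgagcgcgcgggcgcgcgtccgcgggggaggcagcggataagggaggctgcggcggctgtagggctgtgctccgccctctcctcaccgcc
Cdhr2: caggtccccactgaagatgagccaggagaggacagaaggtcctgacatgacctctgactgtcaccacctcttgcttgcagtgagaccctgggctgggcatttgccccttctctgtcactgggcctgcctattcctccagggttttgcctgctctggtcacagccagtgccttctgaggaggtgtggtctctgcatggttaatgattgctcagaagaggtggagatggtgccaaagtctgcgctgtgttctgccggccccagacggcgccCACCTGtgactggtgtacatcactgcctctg
Vil1: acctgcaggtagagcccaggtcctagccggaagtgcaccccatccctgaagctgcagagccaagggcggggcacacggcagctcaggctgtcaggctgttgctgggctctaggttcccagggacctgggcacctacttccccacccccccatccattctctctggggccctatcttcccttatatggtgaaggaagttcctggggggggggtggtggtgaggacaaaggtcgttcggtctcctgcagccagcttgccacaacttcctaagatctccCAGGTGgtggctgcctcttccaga
Tjp1: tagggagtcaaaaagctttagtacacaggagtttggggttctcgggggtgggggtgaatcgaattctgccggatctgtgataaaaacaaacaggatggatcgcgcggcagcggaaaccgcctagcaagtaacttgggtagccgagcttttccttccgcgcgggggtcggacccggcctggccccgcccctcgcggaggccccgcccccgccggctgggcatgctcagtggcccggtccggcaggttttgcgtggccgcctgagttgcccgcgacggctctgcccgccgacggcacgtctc
The match occurs 2 times in Pard6b, before the start site, and once each in Cdhr2 and Vil1, after it. Tjp1 was lower without a match. The letters describe the windows and say nothing of which factor binds them in these mice.

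Among the genes of tight junction transmembrane proteins 5 of 7 were lower and both of the others, Jam2 and Jam3, were higher. F11r, a junctional adhesion molecule (JAM-A), had an intensity of 1171 with the control diet and 853 with psyllium, 1.37-fold lower. Marveld3, a relative of occludin, went from 474 to 369 (1.29-fold lower), and Marveld2, or tricellulin, which seals the corners where 3 cells meet, from 480.1 to 409 (1.17-fold). Occludin itself, Ocln, read 1092 and 989.8, a difference of -0.14 that lay within the gap between probe sets. The adenovirus receptor Cxadr, a homophilic junction protein, was 812 with the control diet and 695 with psyllium (-0.22).

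Jam2 and Jam3 are relatives of F11r known from endothelium and other cells outside the epithelium, and they were the only members at least 1.2-fold higher. Jam2 had an intensity of 167 with the control diet and 238 with psyllium, 1.42-fold higher. Jam3 read 55.4 and 71.2 (1.28-fold higher), the first below the intensity filter, so the size of its difference is uncertain. The JAM family went both ways, from -0.46 for F11r to 0.51 for Jam2.

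The tight junction scaffolds had the second most negative median of the 7 groups, -0.34, with 3 of 3 lower. Tjp3 (ZO-3), one of the PDZ scaffolds under the strands, had an intensity of 785 with the control diet and 600.4 with psyllium, 1.31-fold lower. Its relative Tjp1 (ZO-1) read 941 and 743 (1.27-fold lower). Cingulin, Cgn, which links the scaffold to myosin, read 565 and 511, a difference of -0.15 within the gap.

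Core adherens junction genes differed least of the 7 groups. All 5 were below 0, but their median was -0.08, close to the -0.04 of all genes past the filter, and 0 of 5 reached 1.2-fold. E-cadherin, Cdh1, had an intensity of 2249 with the control diet and 1917 with psyllium (-0.23). Its second probe set read 263 and 195 (-0.44), in the same direction. The p120 catenin Ctnnd1, which holds E-cadherin at the membrane, read 1093 and 925 (-0.24).

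The other catenins and afadin were nearly level between the arrays. Beta-catenin, Ctnnb1, also the effector of Wnt signalling, read 2275 with the control diet and 2145 with psyllium (-0.08). Alpha-catenin, Ctnna1, which couples the complex to actin, differed by -0.03, and Afdn, the nectin-binding scaffold, by -0.05. Both of these turned to just above 0 after quantile normalization or removal of the intensity trend, and Ctnna1 also after median centring, so they have no settled direction. Cdh1 and Ctnnd1 lay below Ctnna1 by more than the gap between probe sets.

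The cadherins of the intestinal surface had the most negative median of the 7 groups, -0.51, carried by 2 of its 3 genes. Cdhr2, a protocadherin that joins microvillus tips, had an intensity of 1505 with the control diet and 1014 with psyllium, 1.48-fold lower. Only 2.65% of genes past the filter had a more negative difference. Cdh17, the liver-intestine cadherin of the lateral membrane, read 3033 and 2124 (1.43-fold lower). Cdhr5, the partner that Cdhr2 binds across the gap between microvilli, read 2785 and 2655 (-0.07), within the gap between probe sets.

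Genes of the proteins that assemble at the base of this microvillus link were lower as Cdhr2 was. They are named here for that role, with their values known. Anks4b read 347 with the control diet and 235 with psyllium (-0.56), the motor Myo7b 1090.5 and 805 (-0.44), and the scaffold Ush1c, or harmonin, 714 and 567 (-0.33). Of the 5 genes of this complex measured here, Cdhr5 alone lay within the gap between probe sets.

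Among desmosome genes and plakins 7 of 8 were lower, with a median of -0.19, and 3 of 8 reached 1.2-fold. Plakoglobin, Jup, shared between desmosomes and adherens junctions, had an intensity of 456 with the control diet and 348 with psyllium, 1.31-fold lower. Plakophilin 3, Pkp3, read 143 and 111 (1.29-fold lower), and desmoplakin, Dsp, which ties the plaque to keratin, read 2420 and 1983 (1.22-fold lower). These were the 3 most negative of the group.

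The desmosomal cadherins lay in the middle of the group. Desmoglein 2, Dsg2, read 1982 with the control diet and 1741 with psyllium, and desmocollin 2, Dsc2, 944 and 829, with the same difference of -0.19. A second probe set of Dsg2, dim on both arrays (41.1 and 33.3), differed by -0.30. Pkp2 differed by -0.14 and envoplakin, Evpl, by -0.16 (98.7 and 88.3). Periplakin, Ppl, a plakin of the cell cortex, was the third member on the higher side, at 103 and 116 (0.17), within the gap.

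Polarity genes were lower in 7 of 7, with a median of -0.22. Pard6b, the Par6 adaptor that brings atypical protein kinase C to Cdc42, had the most negative difference of all 40 genes. Its intensity was 216 with the control diet and 145 with psyllium (-0.58), and 2.51% of genes past the filter had a more negative one. Its partners in the Par complex differed less: Pard3 read 267 and 228 (-0.22), and the kinase Prkcz 293 and 273 (-0.10). Among their relatives in the other polarity list, the second atypical kinase, Prkci, differed by -0.14, and Cdc42 by 0.01.

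In the Crumbs complex, which marks the apical side, Crb3 read 317 with the control diet and 250.4 with psyllium, 1.27-fold lower. Pals1, the adaptor that joins Crb3 to Patj, read 591 and 484 (1.22-fold lower), and Patj 361 and 326 (-0.14). Llgl2, of the opposing lateral complex, differed by -0.11 (339 and 315). All 3 Crumbs genes and Llgl2 lay on the same side, with Crb3 furthest from 0.

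The pan-epithelial group was lower in 7 of 7, with a median of -0.20. Villin, Vil1, which bundles the actin of microvilli, had an intensity of 1486 with the control diet and 1081 with psyllium, 1.37-fold lower. The splicing regulators Esrp1 and Esrp2, which keep epithelial isoforms of many transcripts, read 654 and 551, and 298 and 248. A further probe set that names Esrp2 together with a second gene read 142 and 136 (-0.06) and was left out by the rule. The epithelial adhesion molecule Epcam, by contrast, was nearly level at 3031 and 2883 (-0.07).

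Ezrin, Ezr, which tethers microvillus actin to the membrane, read 1799 with the control diet and 1724 with psyllium (-0.06), far from the value of Vil1 (-0.46). The adhesion receptor Ceacam1 differed by -0.16 (10531 and 9429) and its brush border relative Ceacam20 by -0.20 (765 and 666). Ceacam1 has a close copy, Ceacam2 (-0.16), and probes may bind both. Epcam, Ezr and Cdhr5 passed just above 0 when the intensity trend was removed.

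**Figure D2:**
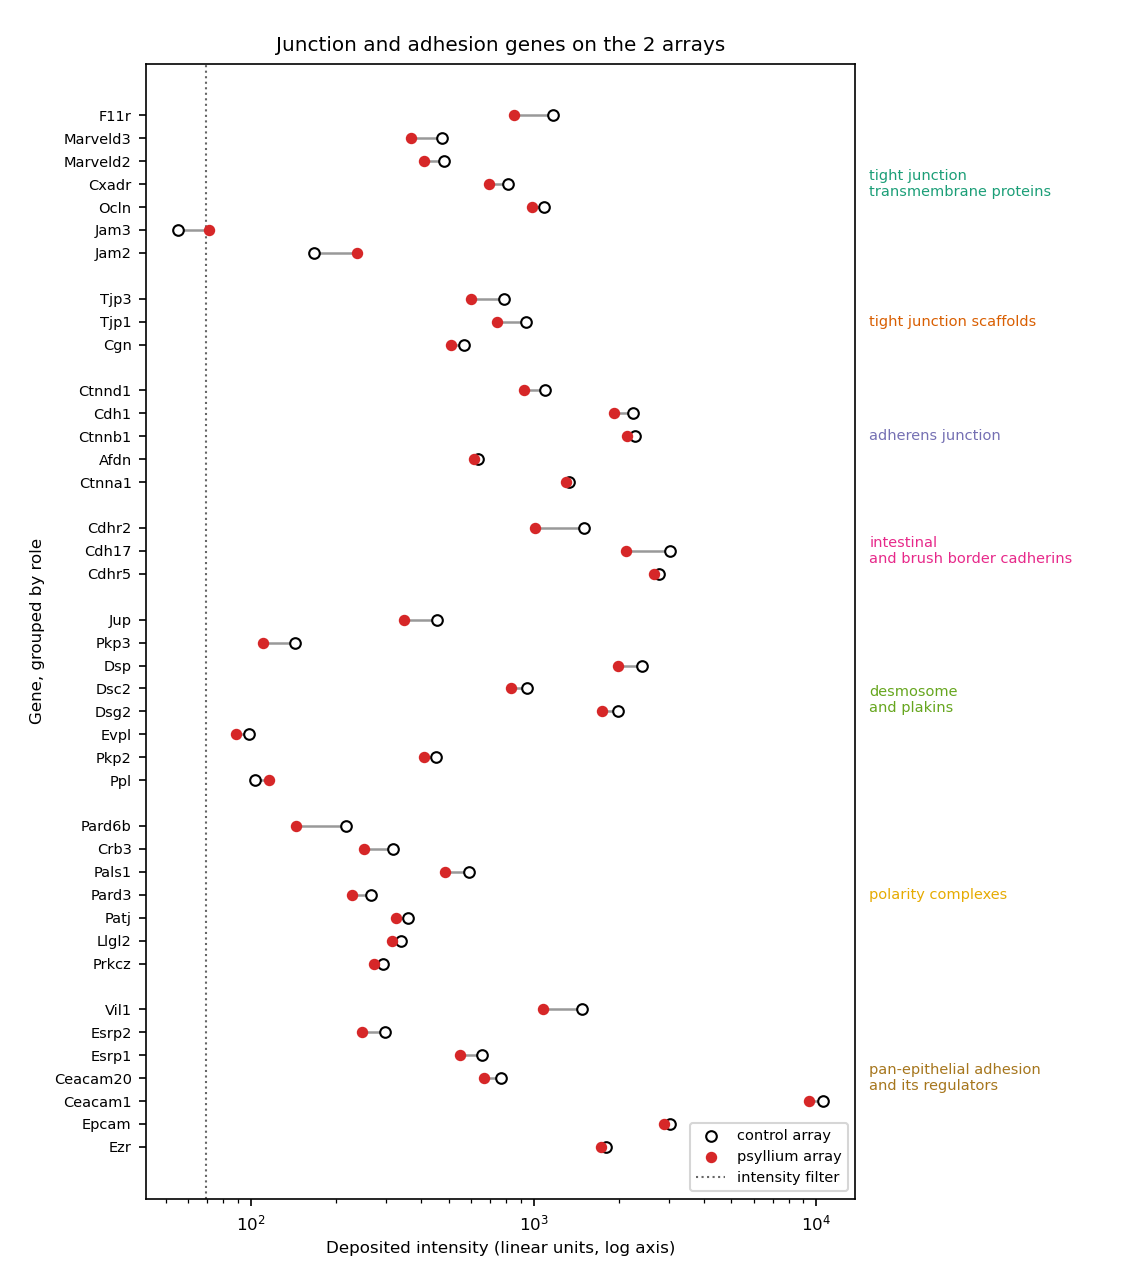
Deposited intensity (x axis, log scale) of each of the 40 genes on the control array (open points) and the psyllium array (red points), grouped by role, with a line joining both values and a dotted line at the filter of 69.5. The red point lies left of the open one for 37 genes and right of it for Jam2, Jam3 and Ppl. Intensities of different genes are not comparable, since each probe set has its own response.

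**Figure D3:**
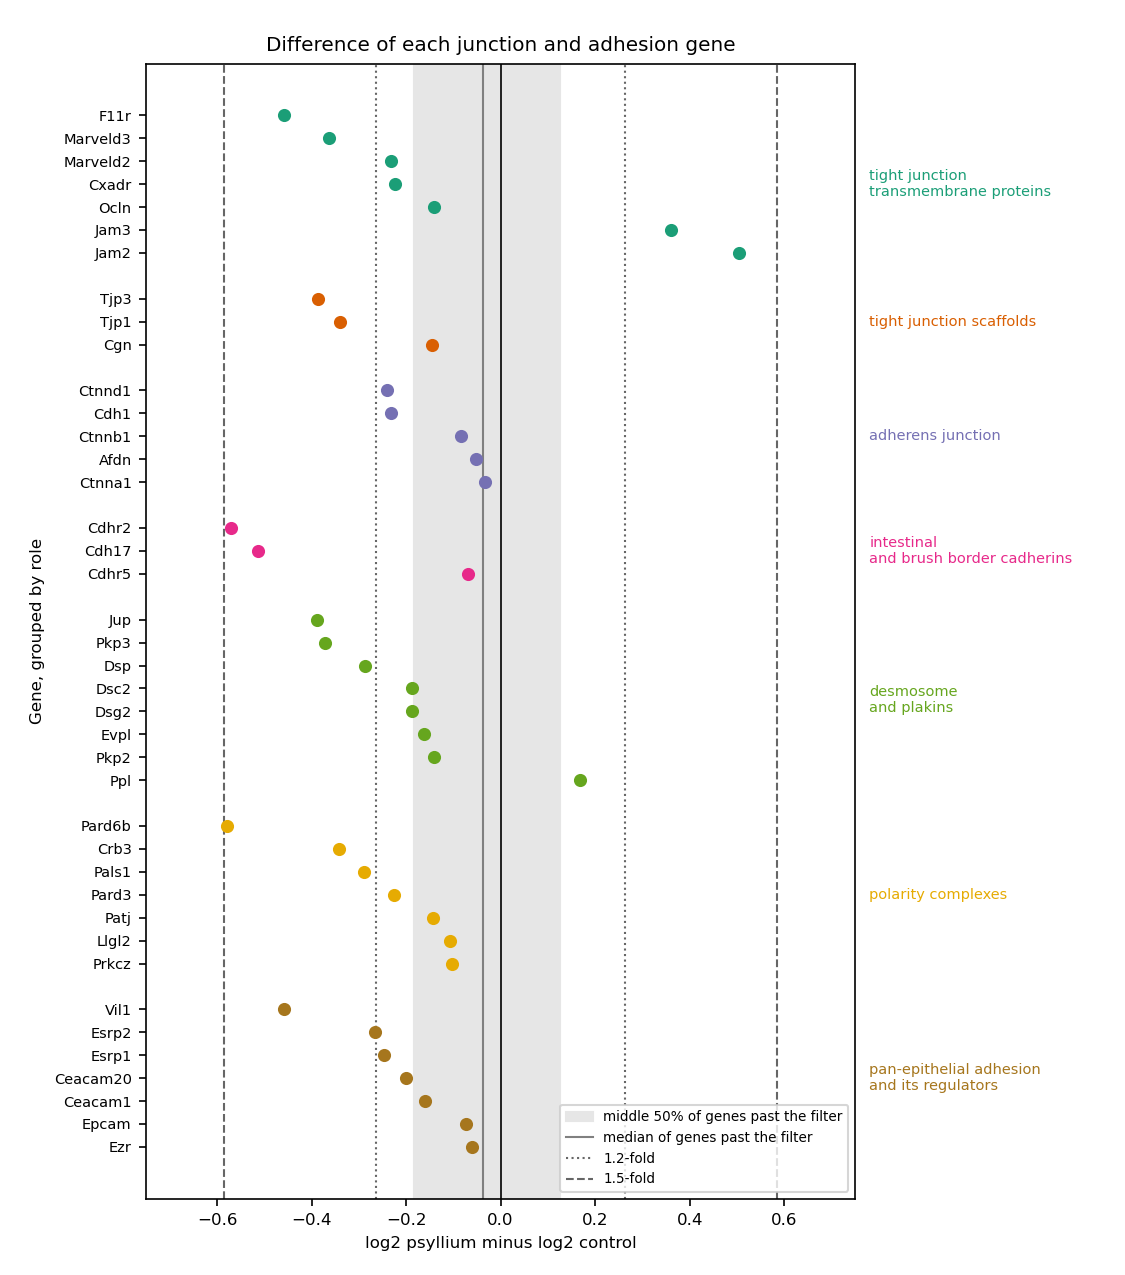
Difference of each gene (x axis, log2 psyllium minus log2 control) in the same order, beside the median (grey line) and middle 50% (grey band) of the 11090 genes past the filter, with lines at 1.2-fold and 1.5-fold. No point crosses the 1.5-fold lines, and the brush border cadherin Cdhr2, the lateral cadherin Cdh17 and the polarity gene Pard6b lie furthest to the left.

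A list of members known to be expressed widely outside epithelium went both ways. These 8 genes (Tjp1, Jam2, Jam3, Ctnna1, Ctnnb1, Ctnnd1, Afdn and Pard3) had a median of -0.07, with 6 below 0 and 2 above. At 1.2-fold 1 of the 8 was lower, beside 15.5% of all genes past the filter, and 2 were higher, beside 13.6%. The other 32 genes had a median of -0.23, with 31 below 0, beside 56.6% of all genes past the filter. Of the 32, 13 were at least 1.2-fold lower, beside 15.5%. Ppl was the exception above 0. The median of the 8 lies between Ctnnb1 (-0.08) and Afdn (-0.05). Ctnna1 (-0.03), Jam2 and Jam3 lie above these, and Tjp1 (-0.34), Ctnnd1 (-0.24) and Pard3 (-0.22) below. The list of 8 was chosen with earlier results of these data known and holds both members at least 1.2-fold higher. The 32 are the remaining members, not a list of genes confined to epithelium. The difference between the lists depends on that choice and was not tested.

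Marker genes of the cells in the sample differed as well. Smooth muscle markers were higher in 12 of 12, 11 of them past 1.5-fold, and had a median of 1.56. Their summed intensity was 11990 with the control diet and 29331 with psyllium. Fibroblast markers were higher in 9 of 9, 8 by at least 1.5-fold, with a median of 1.501 (summed intensity 5184 and 14336). In the first list Actg2 (2.14), Synm (1.88), Des (1.79) and Cald1 (1.70) lay furthest from 0 on the log2 scale, and in the second Fn1 (2.61), Lum (2.14), Col3a1 (1.78) and Col1a1 (1.76). Colonic epithelium markers, 15 of 15 of them past the filter, had a median of -0.09, with 11 below 0. Their summed intensities were 48266 and 46427, of which Muc2 alone held 9087 and 11892. Of the 15 markers 7 were at least 1.2-fold lower, beside 15.5% of all genes past the filter, and 1 was higher by that much, beside 13.6%. Among the 15 the keratins Krt8 and Krt18 differed by -0.03 and -0.01. Krt20, of the mature surface cell, differed by -0.44, Car1 by -0.37, Cdx2 by -0.49 and Hnf4a by -0.48. Slc26a3 (-0.33), Cdx1 (-0.29) and Krt19 (-0.27) were lower as well, and Klf5 (-0.09) and Tspan8 (-0.05) slightly so. The goblet mucin Muc2 was higher by 0.39, Tff3 by 0.24, Fcgbp by 0.10 and Guca2a by 0.07. In bulk RNA fewer epithelial cells and less of a transcript per cell cannot be told apart, and the part of this shift in the differences of the 40 genes was not tested.

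Endothelial markers had a median of 0.06, with 5 of 10 on each side (summed intensity 1444 and 1615), beside the higher values of Jam2 and Jam3. The part of endothelial, fibroblast or muscle RNA in those values was not tested. Over the 9 endothelial markers past the filter the median was -0.04, with 5 below 0. Of these 9 markers 3 were at least 1.2-fold higher, beside 13.6% of all genes past the filter, and 0 were lower by that much, beside 15.5%. Eng differed by 0.48, Egfl7 by 0.40, Pecam1 by 0.34 and Cdh5 by 0.18, whereas Kdr differed by -0.10 and Tek by -0.11. Immune markers had a median of -0.03 (1803 and 1779), with 5 of 9 below 0, and a median of 0.08 over the 7 past the filter. The T cell genes Cd3e (2.43-fold) and Cd3g (1.79-fold) were lower, and the myeloid genes Itgam (0.43) and Csf1r (0.21) higher. The median of enteric neuron and glia markers was -0.09, and 2 of 6 were past the filter, Uchl1 at -0.03 and Ret at -0.15. The summed intensity of that list was 337 and 322. Markers of squamous epithelium, a tissue rich in Ppl and Evpl, were dim on both arrays in 7 of 8 (277 and 273), with a median of -0.10, and Krt10, the remaining one, differed by -0.06. Adipocyte markers had a median of 0.13 (496 and 532), and one of -0.09 over the 2 of 6 past the filter, Cidec at -0.44 and Fabp4 at 0.26, and pancreatic acinar markers one of 0.23 (248 and 259), with 1 of 5 past the filter, Cela1 at -0.09.

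Other genes of the same structures were taken from lists that leave out the 40, and the epithelial and brush border ones lay lower. Of 13 other epithelial adhesion genes past the filter 11 were below 0, beside 56.6% of all genes, and their median was -0.28. At least 1.2-fold lower were 7 of the 13, beside 15.5%, and 0 were higher by that much, beside 13.6%. The regulator Ovol1 was 1.56-fold lower (176 with the control diet and 113 with psyllium). Of 11 brush border and ezrin partner genes 9 were below 0, and their median was -0.33. By the same 1.2-fold rule 7 of the 11 were lower and 2 higher. Of 5 other desmosome genes past the filter 5 were below 0, with a median of -0.19, and Dst differed by -0.06. Perp, a desmosome gene of stratified and simple epithelia, read 1135 and 759, a difference of -0.58 just short of the 1.5-fold line.

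The remaining lists had medians near that of all genes past the filter, but the tight and adherens junction lists spread to both sides. Of 14 other polarity genes past the filter 9 were below 0, with a median of -0.07 and none past 1.5-fold. At 1.2-fold 2 of the 14 were lower and 0 higher, beside 15.5% and 13.6% of all genes past the filter. Erbin, a basolateral scaffold, differed by -0.19. Of 15 other tight junction genes 6 were below 0, with a median of 0.02, and at 1.2-fold 4 were lower and 4 higher. Of 11 other adherens junction genes 6 were below 0, with a median of -0.01, and at 1.2-fold 4 were lower and 3 higher. Among the tight junction genes single members went far in opposite directions: Ildr1, which recruits tricellulin to cell corners, was 1.59-fold lower (1042 and 656), and Bves, known from muscle, was 1.71-fold higher (105 and 180.2). In the adherens junction list Cdh11, a cadherin of mesenchymal cells, was the 1 gene past 1.5-fold, 2.07-fold higher (186 and 384), the opposite side from Cdh1 and Cdh17.

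The ezrin family also went both ways. Ezr, the epithelial form, differed by -0.06, radixin, Rdx, was 1.53-fold higher (183 with the control diet and 280.2 with psyllium), and moesin, Msn, common in cells outside epithelium, was 2.34-fold higher (355 and 832). A second probe set of Msn was dim on both arrays (16.3 and 6.90) and went the other way, which says little at that intensity.

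Claudins, the strand-forming genes left out of the 40, gave a mixed picture. Of 25 measured, 8 were past the filter, with a median of -0.11. Below 0 were 4 of these 8, Cldn4 (-0.57), Cldn23 (-0.45), Cldn3 (-0.44) and Cldn7 (-0.29). All 4 were at least 1.2-fold lower, beside 15.5% of all genes past the filter. Higher by that much was 1 of the 8, beside 13.6%. Cldn8 was 1.64-fold higher (244 and 401). Over the same filter the 40 junction genes had a median of -0.21, with 14 of 40 (35%) at least 1.2-fold lower.

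**Figure D4:**
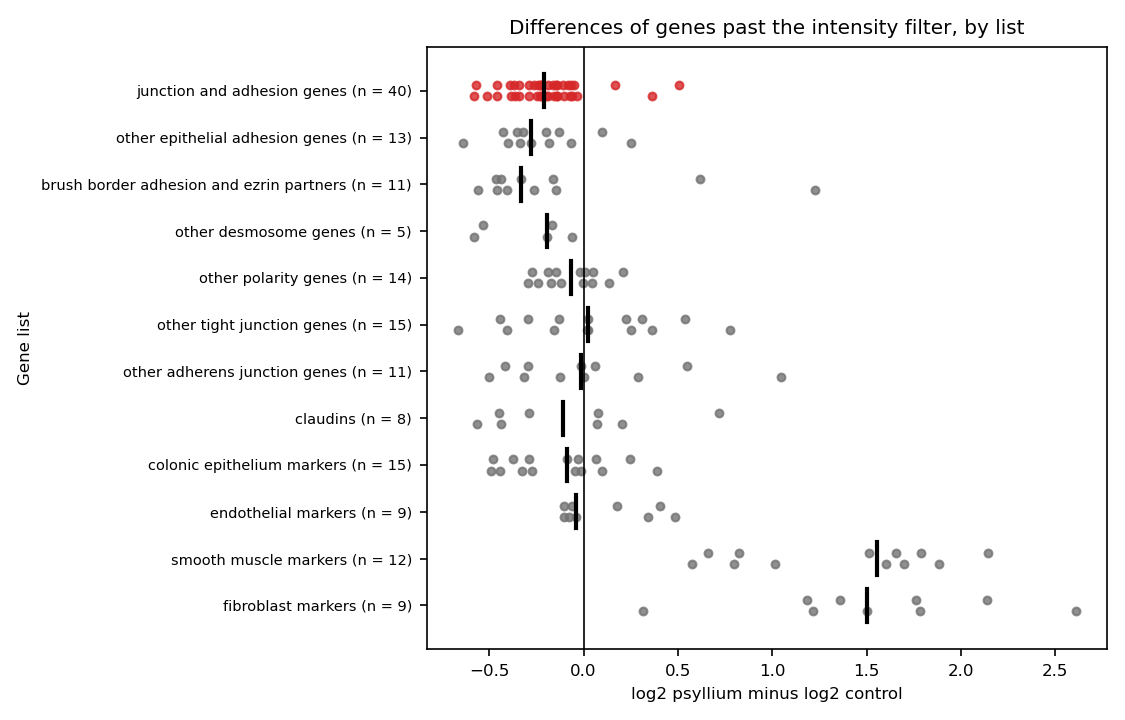
Difference (x axis, log2 psyllium minus log2 control) of each gene past the intensity filter, 1 row per gene list with the number of genes in brackets and the list's median as a black bar. The junction and adhesion genes (red, median -0.21) sit left of 0 with the brush border and other epithelial adhesion lists, the smooth muscle and fibroblast markers sit around 1.5, and the other tight and adherens junction lists spread to both sides.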

How the data were processed

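Whole-transcript array values were deposited as a linear normalized intensity per probe set. The submitters' processing notes name RMA and Affymetrix Expression Console. Their versions, the annotation, the probe summary settings and a genome build are not given in the sources used here. Deposited intensities ran from 1.92 to 13675 on the control array and 1.76 to 13841 for psyllium, with medians of 48.9 and 49.8. If the arrays were equalised, as RMA usually does, differences are relative to the bulk of transcripts.

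Of 41345 probe sets, 23521 named 1 gene in GEO's platform annotation, 1814 several and 16010 none here. Symbols were updated by gene number through a RefSeq table of GRCm38.p6, which held 23328 of the 23521. A gene with more than 1 probe set (1082 of 22180) was represented by the brightest on average. No pseudocount was added before taking log2, and control was subtracted from psyllium (Python 3.11.15, pandas 2.3.3, numpy 2.4.6, statsmodels 0.14.6). Alternatives were the mean of probe sets, a pseudocount of 16, quantile normalization, median centring, removal of a lowess trend on intensity (fraction 0.3) and members past the filter alone. The procedure was tested on simulated data whose planted differences were larger than any of the junction and adhesion genes. Recovery of differences of their size was not tested. The number of arrays limits the precision.

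Every member is named. Of each other list, up to 4 genes past the filter are named, those furthest from 0 among differences of 1.5-fold or more. Where there was none, the 2 brightest are named. Genes outside this rule were named with their values known. They are Anks4b, Myo7b, Ush1c, Prkci, Ceacam2, Krt8, Krt18, Krt19, Krt20, Cdx1, Cdx2, Hnf4a, Klf5, Tspan8, Slc26a3, Tff3, Fcgbp, Guca2a, Eng, Egfl7, Kdr, Tek, Itgam, Csf1r, Cldn3, Cldn4, Cldn7 and Cldn23. The members and lists were chosen with earlier results of these data known.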

Additional observations from a re-analysis of the deposited data

How the results depend on the processing

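The count of members below 0, the counts past 1.2-fold and 1.5-fold and the medians of all members and of the 7 role groups kept their direction under the 6 alternatives, and no count moved by over 1.5 times. Members below 0 numbered 37 with the mean of probe sets, with the pseudocount of 16 and on members past the filter, 36 after median centring, 35 after quantile normalization and 32 with the intensity trend removed, where 49.8% of all genes past the filter were below 0. The median over members ran from -0.22 with the mean of probe sets to -0.16 without the intensity trend. The median over all genes past the filter moved by at most 0.039. All members passed the filter, so that alternative repeats the main value.

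Single genes near 0 changed sign: Ctnna1 (0.00075 after quantile normalization, 0.0058 after median centring, 0.040 without the intensity trend), Afdn (0.00027 after quantile normalization, 0.017 without the trend), and, without the trend, Cdhr5 (0.0042), Epcam (0.00072) and Ezr (0.012). These 8 values aside, the other 192 single-gene values kept their sign and moved by less than 0.17, the gap between probe sets. No paired analysis was possible because each diet has 1 array. With 1 array per diet, leaving out a replicate could not be run, and variation between mice is not measured.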
